A study of Xenopus laevis with 8 samples.

Results

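The genes of bone morphogenetic protein (BMP), Nodal and transforming growth factor beta (TGF-beta) signalling were compared between head and tail fragments of embryos of the clawed frog Xenopus laevis. The members were every probe set whose symbol in the array annotation names a ligand, extracellular antagonist, receptor, Smad, Smad regulator or Id gene of these pathways, with every copy that has a symbol of its own kept. The rule itself uses no measured value, but it and the division into roles were made with earlier results of these data known. The rule took 87 probe sets of 15491 on the array without controls, for 60 gene names. They divided into 21 probe sets of ligands, 24 of extracellular antagonists and modulators, 15 of receptors, 25 of Smads, Smad regulators and Id genes, and 2 that share a name with the family only, tgfbi.L and tgfb1i1.L. A further 9 probe sets are annotated to several symbols that all belong to the family, and no gene is named from them or counted among the members. Of these, 4 passed the signal filter described below, and 1 of the 4 was higher in tails and 0 higher in heads in limma.

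Head fragments and tail fragments were taken from untreated embryos at stage 18, the late neurula, when embryos were divided into a front and a back piece, and total RNA of a fragment was hybridised to an Affymetrix expression array. There were 4 head arrays and 4 tail arrays, and for either fragment replicates 1, 2 and 3 were single embryos whereas replicate 4 was pooled. No strain, genotype, clutch or pool size is given in the labels, and a head and a tail with the same number are not stated to share an embryo; p-values here therefore measure the spread between these samples only. A fragment holds every tissue on its side, and all groups are untreated.

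In these pathways a secreted dimer of the TGF-beta superfamily binds type I and type II receptor kinases, which phosphorylate receptor Smads that enter the nucleus with Smad4. BMPs act through Smad1 and its relatives, whereas Nodal, activin and TGF-beta act through Smad2 and Smad3. In the frog embryo BMP ligands are ventralising signals, chordin, noggin and follistatin bind and block them on the dorsal side, tolloid-type proteases cut chordin, and sizzled blocks those proteases. Nodal-type ligands and Vg1 induce mesoderm and endoderm in the blastula, before the stage examined here.

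The values are MAS5 signals, a linear intensity with no unit. The trimmed mean of the deposited signals was 996.8 to 998.8 on all arrays, and the median signal of the 8 arrays lay between 327 and 390 units. A mean log2 signal at or above the 40th percentile of the array, 7.86, was required for testing, and a signal of 93.3, the 20th percentile of all values, served as a low-signal mark that is not a measured background. All 8 tested probe sets of the head markers ag1, agr2, six3, pax6 and otx1 were higher in heads. All 6 of the tail markers hoxa7, hoxc8, tbx6, myf5, tbxt and mespa were higher in tails. These markers were chosen with earlier results of these data known, so their directions describe the fragments and do not test the labels. The head means of all 6 tail-marker probe sets lay under the filter, so these passed it only through their tail values. The dimmer tested ag1.S probe set, with a tail mean of 7.29, passed it only through its head values. A further 10 head-marker probe sets, among them all of otx2, and 1 of mespa lay under the filter. Of all 9295 tested probe sets, 429 (4.62%) had a limma adjusted p under 0.05; 186 (2%) were higher in heads and 243 (2.61%) higher in tails.

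Many pathway genes were dim in these embryos. Of the 87 member probe sets, 47 (54%) lay under the filter, against 40% of the array, and for 18 of them both tissue means were under the low-signal mark. The share under the filter was 71.4% for ligands (15 of 21), 66.7% for antagonists (16 of 24), 46.7% for receptors (7 of 15) and 36% for Smads, regulators and Id genes (9 of 25). The gastrula-type ligands nodal.L, nodal3.1.L, nodal5.2.L and nodal6.L were all among the 18, and nodal.L, a Nodal gene, had 7.77, 13.1, 9.14 and 10.4 units in heads, against 6.02, 26.4, 11.4 and 16.9 units in tails. By contrast, nodal1.L and nodal2.L lay under the filter but had both tissue means above the mark. Their log2 means were 6.80 and 8.14 in heads, against 6.88 and 7.45 in tails. With the 47 left out, the tested members were 40 probe sets of 30 genes.

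Of these 40 probe sets, 1 passed (2.5%, against 4.62% of all tested probe sets), and it was the matrix gene tgfbi.L rather than a part of the signalling pathways. No tested ligand, antagonist, receptor, Smad or Id probe set with a single symbol passed in either direction in limma with Benjamini-Hochberg adjustment. With the probe sets of several family symbols added, 44 were tested and 4.55% passed, 1 higher in heads and 1 higher in tails, close to the 4.62% of all tested probe sets. At an unadjusted p under 0.05 there were 10 members (25%, against 17.5% of all tested probe sets), 5 higher in heads and 5 higher in tails. Heads and tails did not overlap for 3 members (7.5%, against 11.7%), with heads above tails for tgfbi.L and fstl1.L (5%, against 5.95%) and tails above heads for bmp4.S (2.5%, against 5.71%). The median head minus tail difference was 0.11 on the log2 scale over the members and 0.06 over all tested probe sets. A 95% confidence interval of the difference that stayed within 2-fold in either direction was obtained for 16 of the 40 members (40%). The share was 61.5% over all tested probe sets. For 24 members the interval reached or passed 2-fold. Among these, that of tgfbi.L lay wholly beyond 2-fold, between 1.02 and 2.09 on the log2 scale. Because whole fragments were measured, fewer cells of a type and less RNA per cell cannot be told apart in any difference given here.

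**Figure D1:**
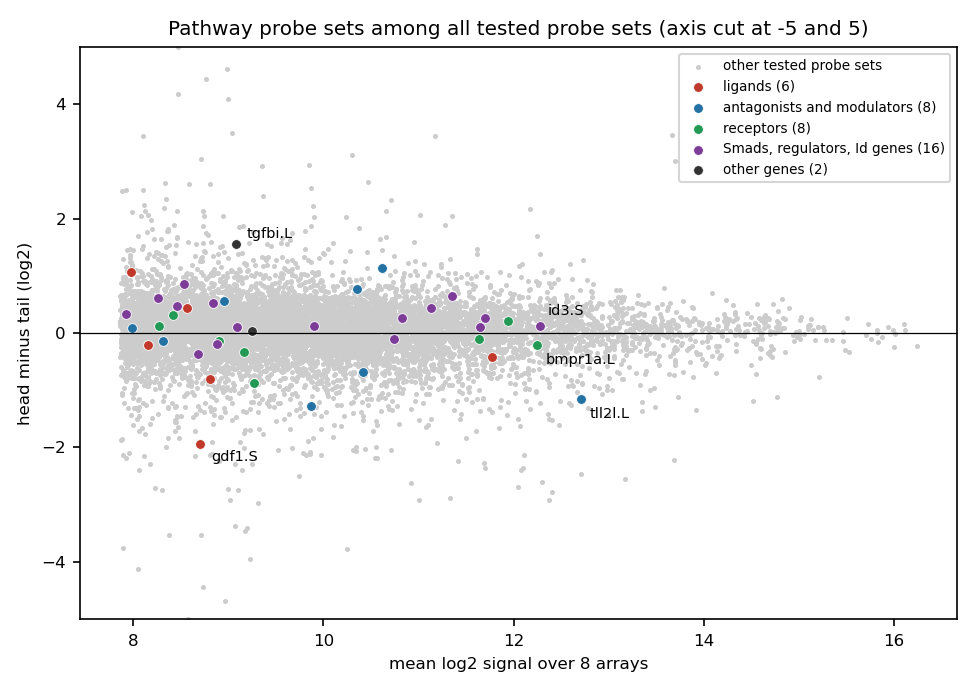
Head minus tail difference (log2, vertical axis) against the mean log2 signal over 8 arrays (horizontal axis) for the 9295 tested probe sets, in grey, with the 40 tested pathway probe sets coloured by role; differences beyond 5 are not drawn. The pathway probe sets lie within the grey cloud between -1.94 (gdf1.S) and 1.56 (tgfbi.L).

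Among ligands, tail values were higher for the Vg1 gene and for bmp4, and head values for an activin subunit, but none of the 6 tested ligand probe sets passed. The Vg1 gene gdf1.S, which encodes a maternally stored mesoderm inducer in the frog, had 598, 170.5, 138 and 148 units in heads, against 507, 511, 1013 and 1708 units in tails. Head replicate 1 lay among the tails and the other 3 heads lay below every tail. The head mean was 7.74 ± 1.00 and the tail mean 9.68 ± 0.85 on the log2 scale (SD, n = 4 each), a difference of -1.94 with SE 0.51 and a limma adjusted p of 0.0519. That head mean lay under the filter, so the tail values of gdf1.S brought it into the test. Its limma adjusted p without a filter was 0.0685. Without head replicate 1 the difference was -2.43 (limma adjusted p = 0.00624), and over all alternatives that tested it the adjusted p ran between 0.00147 and 0.245.

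The ventral signal gene bmp4.S had 499, 230.2, 351 and 329.7 units in heads, against 528, 539.9, 775 and 561 units in tails. All 4 heads lay below all 4 tails. The difference was -0.80 with SE 0.27 (limma adjusted p = 0.140). It passed in 2 of 20 alternatives, with array weights (adjusted p = 0.0130) and without head replicate 1 and tail replicate 1 together (0.0441), while the largest was 0.367. Leaving out both replicates 1 was chosen after seeing the data. It removes the head and the tail nearest to each other, so that pass adds no support. Its relative bmp7.1.L, which encodes a ligand that pairs with other BMPs, was the brightest ligand, with 3724, 2783, 2621 and 3109 units in heads, against 4741, 4069, 4256 and 3254 units in tails. Head replicate 1 was the only head above a tail, replicate 4, and the difference was -0.42 with SE 0.21 (limma adjusted p = 0.330) and a 95% interval between -0.86 and 0.03.

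The activin beta B subunit gene inhbb.L had 282, 381, 401 and 412 units in heads, against 131, 368, 186 and 101 units in tails. Tail replicate 2 was the only tail above a head. The difference was 1.07 with SE 0.37 (limma adjusted p = 0.151), with adjusted p values between 0.0325 and 0.464 over its alternatives. Without tail replicate 2 the difference was 1.44 (limma adjusted p = 0.0325). Leaving out the tail seen to lie with the heads enlarges the difference by construction, so that pass adds no support. The tail mean of inhbb.L, 7.44, lay under the filter, so its head values brought it into the test. Its limma adjusted p without a filter was 0.215. The other tested ligands were gdf7.S, a BMP-type ligand of the dorsal neural tube in vertebrates, with a log2 difference of 0.43 (limma adjusted p = 0.446), and the brighter probe set of admp.S, the anti-dorsalising ligand of the organizer, with -0.20 (limma adjusted p = 0.854). Head replicate 1 was the highest of all 8 arrays for admp.S, at 613 units, against 152 to 255 units in the other heads and 232 to 458 units in tails. The dimmer admp.S probe set, under the filter, gave -1.07 (adjusted p = 0.663 without a filter).

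Below the filter, 2 ligands stood apart when every probe set was tested, a setting in which 2.93% of 15491 probe sets passed. In that fit 4 of the 87 members passed (4.6%), 2 higher in heads (2.3%, against 1.27% of all) and 2 higher in tails (2.3%, against 1.66%). One ligand was tgfb1.L, the TGF-beta gene also listed under the frog name TGF-beta5, with 10.8, 8.86, 16.8 and 19.8 units in heads, against 188, 192, 106 and 171 units in tails. Every tail exceeded every head, and all heads were far under the low-signal mark. With heads raised to that mark the tails were at least 1.71-fold higher, a bound that was not itself tested. The limma adjusted p of 0.00143 without a filter is of the measured signals, with the heads under the mark. The measured log2 means were 3.74 ± 0.54 in heads, against 7.32 ± 0.41 for tails (SD, n = 4 each).

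The other was gdf3.S, listed also as derriere, a Vg1 relative that acts in posterior mesoderm of the frog, with 36, 94.7, 174 and 43.8 units in heads, against 422, 311, 257 and 451 units in tails. No head reached the lowest tail. With low values raised to the mark the tails were at least 3.21-fold higher, again a bound that was not itself tested. On the measured signals the limma adjusted p was 0.0255 without a filter, and 0.0470 without a filter and without head replicate 1. The measured log2 means were 6.16 ± 1.05 in heads, against 8.46 ± 0.38 for tails (SD, n = 4 each). The remaining ligands under the filter did not pass in that fit. The L and S copies of bmp2, a BMP close to bmp4, had log2 differences of -0.94 and -1.55 (limma adjusted p = 0.406 and 0.386 without a filter) at signals between 11 and 348 units, and bmp7.2.L had a difference of 1.08 (adjusted p = 0.401). For nodal1.L and nodal2.L, mesoderm-inducing Nodal genes, the differences were -0.08 and 0.70 (adjusted p = 0.965 and 0.470).

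**Figure D2:**
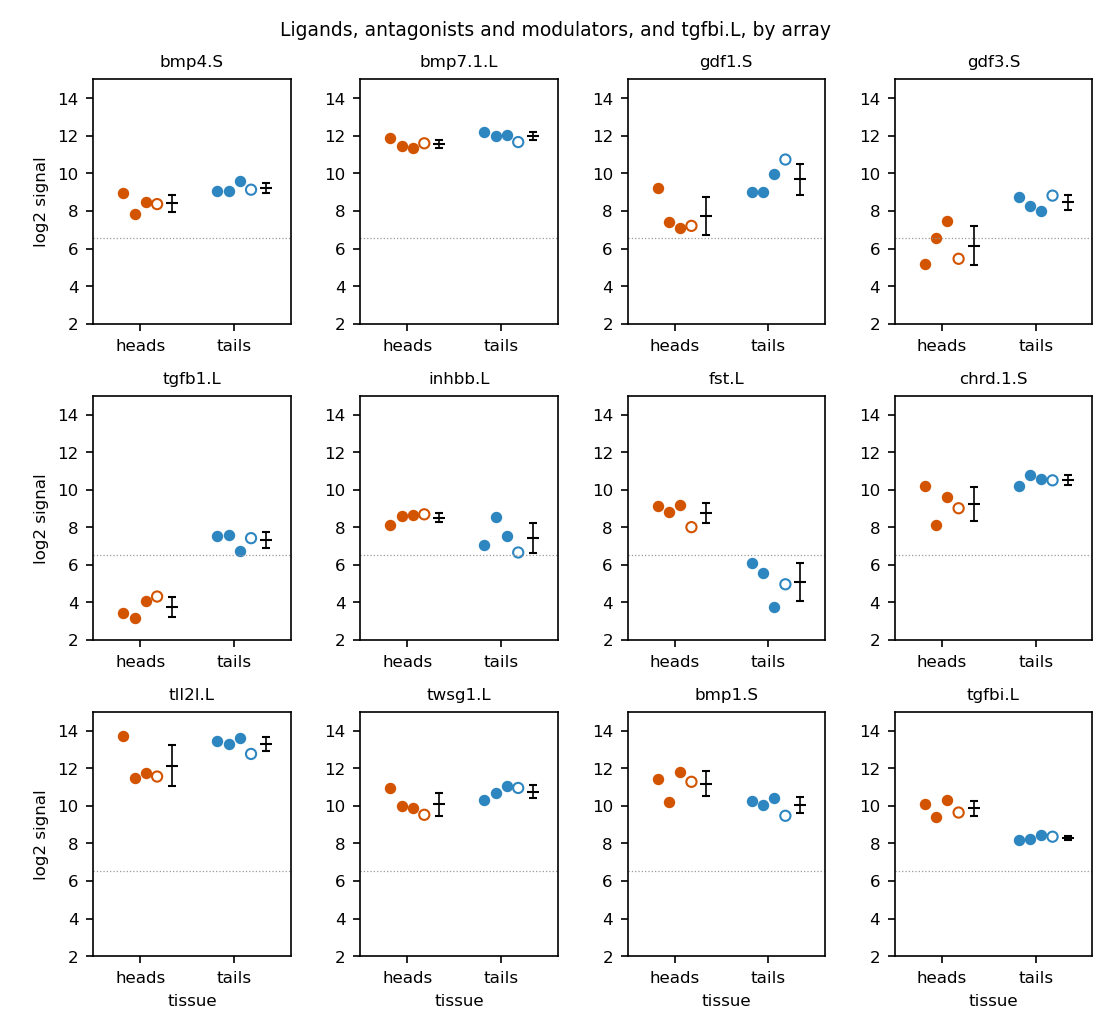
Log2 signal (vertical axis) of 12 probe sets in heads (orange) and tails (blue). Filled points are single embryos in the order of their replicate numbers, open points are pools, black marks give the mean and SD over 4 arrays, and the dotted line is the low-signal mark at 6.54; where a gene has several probe sets the brightest is drawn. The heads of fst.L lie above the line and its tails below it, tgfb1.L shows the opposite, and head replicate 1 stands with the tails for gdf1.S and tll2l.L.

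Among the extracellular antagonists, follistatin was measured above the low-signal mark in heads only, while chordin leaned to the tail. The follistatin gene fst.L, whose product binds activin and BMPs, had 558, 442, 575 and 256 units in heads, against 68.8, 47, 13.5 and 31.1 units in tails. All heads were above all tails, and all tails were under the mark. Its mean over all arrays kept it under the filter, so the test comes from the fit without one. On the measured signals the limma adjusted p was 0.00169, with log2 means of 8.77 ± 0.54 in heads, against 5.09 ± 1.01 for tails (SD, n = 4 each). With tails raised to the mark, heads were at least 4.68-fold higher, a bound that was not itself tested. The related gene fstl1.L, follistatin-like in sequence, had 1450.2, 2703, 1719 and 1246 units in heads, against 1171, 789, 940.3 and 1166 units in tails. The tissues did not overlap, and the difference of 0.76 with SE 0.27 did not pass (limma adjusted p = 0.154).

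The chordin gene chrd.1.S, a BMP antagonist of the dorsal midline, had 1179, 276, 775 and 515 units in heads and 1157, 1771, 1521 and 1443 units in tails for its brighter probe set. Head replicate 1 slightly exceeded tail replicate 1, and the other heads lay below all tails. The difference was -1.28 with SE 0.38 (limma adjusted p = 0.0880), and without head replicate 1 it was -1.60 (limma adjusted p = 0.0191), with a range between 0.0121 and 0.256 over its alternatives. The second chordin probe set, under the filter, had a difference of -1.06 (adjusted p = 0.514 without a filter). Noggin, the other classic dorsal BMP antagonist, was dim: nog.L had 227, 138, 153 and 251 units in heads, against 149, 177, 246 and 338 units in tails, a difference of -0.22 (adjusted p = 0.857 without a filter).

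The 2 probe sets of sizzled, the inhibitor of tolloid proteases, gave 0.11 for szl.L and -0.73 for szl.S (adjusted p = 0.944 and 0.5005 without a filter), and szl.L had 342, 145, 138 and 135 units in heads against 147, 204, 208 and 111 units in tails, with head replicate 1 the highest array. The Nodal antagonist genes lefty.L, lefty.S and cer1.S had differences of -1.34, -0.30 and 0.13 (adjusted p = 0.115, 0.897 and 0.963 without a filter). For lefty.L the heads held 66.8, 246, 118 and 122 units, against 367, 330.0, 343 and 235 units in tails, so that head replicate 2 just exceeded tail replicate 4. The BMP pseudoreceptor gene bambi.S had 335, 443, 124 and 463 units in heads, against 547, 113, 349 and 586 units in tails. Each tissue held 1 low array, and bambi had a log2 difference of -0.14 for bambi.S (95% interval between -1.33 and 1.04; limma adjusted p = 0.924) and of -0.79 for bambi.L, under the filter (0.652 without it).

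Proteases and binding proteins that set the release of BMPs from chordin gave unlike values. The brightest member of all, tll2l.L, which is annotated by name as tolloid-like, had 13726, 2811, 3476 and 3022 units in heads, against 11296, 9928, 12663 and 6955 units in tails. Head replicate 1 was higher than every tail, and the other 3 heads were lower than every tail. The difference was -1.15 with SE 0.44 (limma adjusted p = 0.190), and without head replicate 1 it was -1.69 (limma adjusted p = 0.00236), with adjusted p values up to 0.443 over its alternatives. For tll2.L, another tolloid-like gene, every tail (145 to 235 units) exceeded every head (20.2 to 131 units), and the adjusted p was 0.0970 without a filter. The tolloid-like gene tll1.S had a difference of 0.08 (limma adjusted p = 0.951).

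The gene bmp1.S, which despite its name encodes a tolloid-type protease, leaned the other way in its brightest probe set, with 2800.1, 1184, 3572 and 2487 units in heads, against 1206, 1074, 1352 and 709.7 units in tails. Head replicate 2 was the only head within the range of the tails. The difference was 1.14 with SE 0.34 (limma adjusted p = 0.0865), with values up to 0.307 over its alternatives. Without head replicate 2 the difference was 1.47 (limma adjusted p = 0.0180). Leaving out the head seen to lie with the tails enlarges the difference by construction, so that pass adds no support. A second bmp1.S probe set had a difference of 0.56 (limma adjusted p = 0.723) and another, under the filter, -0.40 (0.623 without a filter). The bmp1.L probe sets, under the filter, gave -0.52 and 0.12 (0.808 and 0.967 without a filter). Twisted gastrulation, a chordin and BMP binding protein, had for twsg1.L 1943, 1015, 946 and 736 units in heads, against 1248, 1656, 2165 and 1983 units in tails. Head replicate 1 was again the head nearest to the high tails, and the difference was -0.67 with SE 0.31 (limma adjusted p = 0.280). The adjusted p was 0.0142 without head replicate 1 and tail replicate 1 together and up to 0.650 in other settings. Leaving out both replicates 1 was chosen after seeing the data and removes the head nearest to the tails, so that pass adds no support. The S copy, twsg1.S, under the filter, gave -0.44 (limma adjusted p = 0.794 without a filter).

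Head replicate 1 thus lay beside the tails, or above them, for gdf1.S, chrd.1.S, tll2l.L and twsg1.L. Its mean tail-marker level, as a deviation from the probe set means, was -2.35, the lowest of the heads (the others -1.86 to -1.36; tails 1.32 to 2.12), and its head-marker level was 1.97, the highest of the heads (the others 1.49 to 1.66; tails -1.82 to -1.40). That tail-marker mean takes in hoxa7.L and hoxc8.S, which had 7.56 and 5.91 units in head replicate 1, far under the low-signal mark. Among the other tested tail markers, this array was the highest head for mespa.S (524 units, the others 66 to 220). It was the lowest head for tbx6.L (123 units, the others 143 to 253) and in between for myf5.L and tbxt.S. The mean of head replicate 1 over 7 tested probe sets of Nodal-responsive genes was 0.02, against -1.65 to -0.47 in the other heads and 0.05 to 1.09 in tails. That mean leans on sox17a.L, with 837 units in head replicate 1 and 10.8, 152 and 219 units in the other heads. Several of the 7 read sox17 genes. The head means of sox17a.L (7.04), sox17a.S (7.55), the dimmer sox17b.1.S probe set (6.94) and tbxt.S (7.67) lay under the filter. Their tail values brought them into the test. With head replicate 1 left out, 3 of 40 tested members were higher in tails (gdf1.S, chrd.1.S and tll2l.L) and 1 in heads (tgfbi.L). Over the array, 479 of 9295 tested probe sets then passed. Leaving out an array seen to lie with the other tissue enlarges the difference by construction, so these passes add no support. Of the 8 fits with 1 array left out, gdf1.S passed in 2. The genes chrd.1.S, tll2l.L, inhbb.L and bmp1.S (brightest probe set) passed in 1 each. Without tail replicate 1, gdf1.S (adjusted p = 0.0356) and the BMP type I receptor gene acvr1.L (adjusted p = 0.0349) were higher in tails. In that fit 501 of 9295 tested probe sets passed. For acvr1.L tail replicate 1 lay with the lowest heads, so its pass adds no support either.

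**Figure D3:**
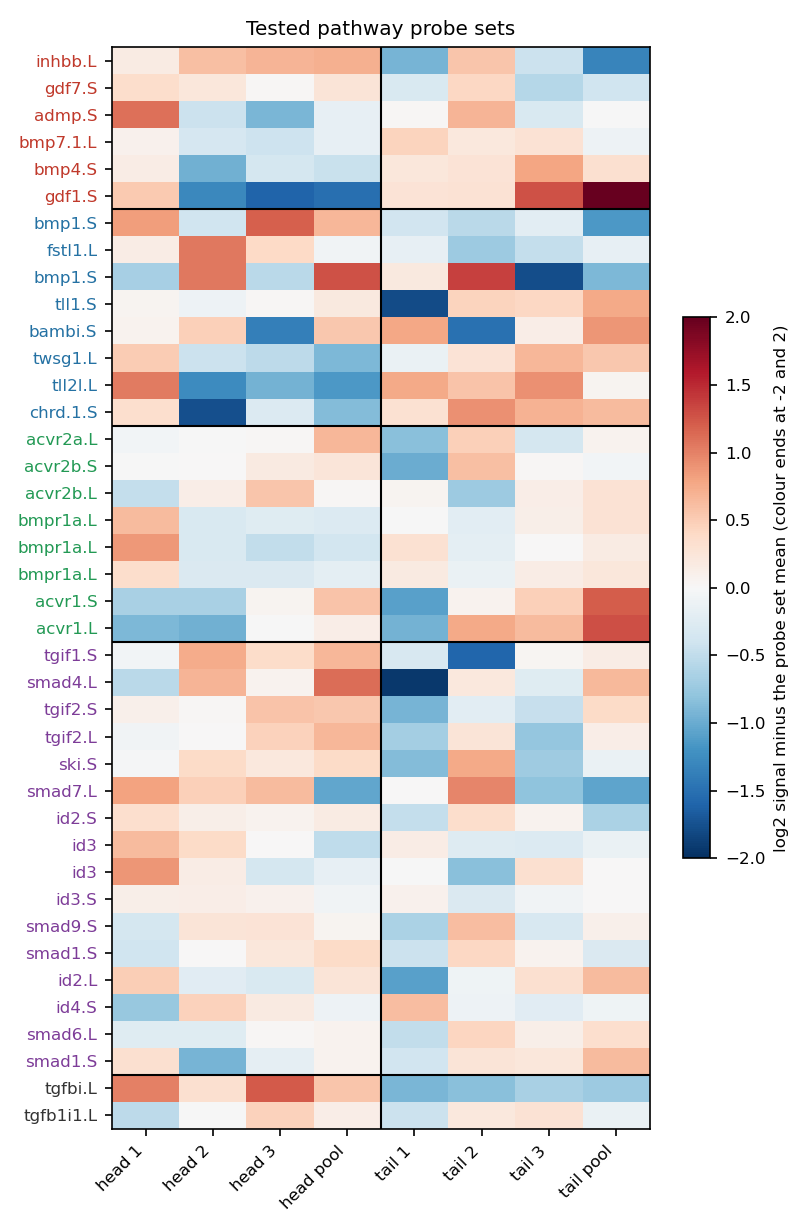
Log2 signal of each of the 40 tested pathway probe sets minus its mean over 8 arrays (colour, red above and blue below the mean), with heads left and tails right of the line. Blocks from top to bottom are ligands, antagonists and modulators, receptors, Smads with regulators and Id genes, and the 2 other genes; only tgfbi.L, in the lowest block, passed the test.

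Receptor genes had the smallest median size of the difference, 0.21, against 0.30 for Smads, regulators and Id genes, 0.62 for ligands, 0.72 for antagonists and modulators, and 0.28 over all tested probe sets. The ligand median rests on 6 probe sets. The largest differences among them, of gdf1.S and inhbb.L, belong to probe sets that passed the filter only through the tissue where they were high. The roles were set with earlier results known, so this order of medians is a description only. None of the 15 receptor probe sets passed with or without a filter, the 8 tested ones ranged between -0.87 and 0.32, and the interval stayed within 2-fold for 5 of them. These 8 cover only 4 genes, so the receptor median and the 5 intervals include repeated readings of the same gene. The BMP type I receptor gene bmpr1a.L was the brightest receptor, with 6183, 3980.3, 3993 and 4238 units in heads, against 5484, 4425, 5380.5 and 5673 units in tails. Head replicate 1 exceeded all tails and the other heads lay below them. The difference was -0.21 (95% interval between -0.66 and 0.25; limma adjusted p = 0.681), and the 2 other tested probe sets of this copy gave -0.10 and -0.14. The activin type II receptor gene acvr2b.S had 3913, 3961, 4461 and 4645 units in heads, against 1968, 5961, 3992 and 3805 units in tails, with tails spanning the heads. Its difference was 0.21 (95% interval between -0.43 and 0.85, limma adjusted p = 0.781), and that of acvr2b.L was 0.12. A dimmer acvr2b.S probe set, under the filter, gave 0.68 (limma adjusted p = 0.632 without a filter).

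The L and S copies of acvr1, a type I receptor of BMPs, had differences of -0.87 and -0.34 (limma adjusted p = 0.346 and 0.767). For acvr1.L the heads held 332, 318, 611 and 679 units, against 320.0, 1048, 955 and 1506 units in tails, and tail replicate 1 lay with the lowest heads. The type II receptor gene acvr2a.L had a difference of 0.32 (limma adjusted p = 0.676). The BMP type II receptor gene bmpr2.S, the TGF-beta receptor genes tgfbr1.S and tgfbr2l.L, the Nodal and activin type I receptor gene acvr1b.S and the S copy of bmpr1a all lay under the filter, with no array above 248 units.

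None of the 16 tested probe sets of Smad, regulator and Id genes, which cover 11 genes, passed. The differences ranged between -0.36 and 0.86 with a median of 0.26, and the interval stayed within 2-fold for 9 of the 16. Positive differences were found for 13 of the 16, against 5208 of all 9295 tested probe sets, and several of the 13 read the same gene, such as id3 and tgif2. The Id genes, direct BMP targets that block basic helix-loop-helix factors, were bright. The gene id3.S had 5342, 5409, 5253 and 4712 units in heads, against 5248, 4071, 4730.0 and 4997 units in tails. These ranges largely coincide, and the difference was 0.13 with SE 0.18, a 95% interval between -0.27 and 0.52 and a limma adjusted p of 0.789. Both probe sets annotated id3 without a copy gave 0.25 and 0.26.

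For id2.L the values were 4492, 2729, 2592 and 3832 units in heads and 1509.7, 2997, 4003 and 4941 units in tails, with a difference of 0.11 (95% interval between -0.64 and 0.86; limma adjusted p = 0.908). For id4.S they were 1017, 2362, 1936 and 1609 units in heads and 2641, 1599, 1473 and 1626 units in tails, with a difference of -0.11 (95% interval between -0.74 and 0.53; limma adjusted p = 0.890). The signs of id2.L and id4.S turned in some alternatives. No probe set was annotated id1 alone, and the dimmer id2.S had a difference of 0.34 (adjusted p = 0.604).

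The inhibitory Smad genes are themselves induced by the pathway as feedback. For smad6.L, which acts on BMP signals, there were 399, 399.6, 478 and 493 units in heads, against 336, 637, 511 and 591 units in tails. The spread of the tails covered the heads, and the difference was -0.20 (95% interval between -0.75 and 0.35; limma adjusted p = 0.760). The brightest probe set of smad7.L, which acts on both branches, had 3911, 3125, 3485 and 1094 units in heads, against 2242, 4427, 1276 and 1073 units in tails. Both pools were low, and the difference was 0.44 (limma adjusted p = 0.705); the 2 dimmer probe sets of smad7.L, under the filter, gave -0.91 and -0.80, the opposite sign (adjusted p = 0.419 and 0.423 without a filter).

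Of the receptor Smads, the BMP Smad genes smad1.S and smad9.S had differences of 0.11 and 0.12, a second smad1.S probe set gave -0.36, and the common partner smad4.L gave 0.66 (limma adjusted p between 0.573 and 0.882 for the 4). Under the filter, smad1.L gave 0.27 and a second smad4.L probe set 0.08 (limma adjusted p = 0.901 and 0.956 without a filter). The activin-type Smad genes smad2.L and smad3.L lay under the filter (0.13 and 0.62). The corepressor genes tgif1.S, tgif2.L and tgif2.S, which dampen Smad2 and Smad3 output, had positive differences of 0.86, 0.53 and 0.61, and the corepressor gene ski.S one of 0.48. For tgif1.S the heads held 356, 622, 477 and 590.2 units, against 297, 124, 383 and 411 units in tails, where only tail replicates 3 and 4 exceeded the lowest head, and its limma adjusted p was 0.259. The ubiquitin ligase genes smurf1.L and smurf2.S, which degrade Smads and receptors, were under the filter with differences of 0.05 and 0.56.

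The 1 member that passed, tgfbi.L, encodes a secreted matrix protein named for its induction by TGF-beta in mammalian cells. It had 1094, 677, 1263 and 800.1 units in heads, against 288, 304, 346 and 328 units in tails. The lowest head, at 677 units, lay far above the highest tail, at 346 units. The head mean was 9.86 ± 0.41 and the tail mean 8.30 ± 0.12 on the log2 scale (SD, n = 4 each), a 2.95-fold difference (limma adjusted p = 0.00348; between 9.97e-04 and 0.0172 in the 20 alternatives that tested it). Under the filter at the 60th percentile it was not tested. The other gene taken by name alone, tgfb1i1.L, encodes a focal adhesion protein and had a difference of 0.03 (limma adjusted p = 0.970).

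Where a gene had 2 or more tested probe sets, these could be set beside each other. There were 12 such pairs in 8 genes, and 11 pairs had the same sign of difference, including all 4 pairs of an L and an S copy (acvr1, acvr2b, id2 and tgif2). The exception was the pair of smad1.S. The pairs of bmpr1a all read its L copy. Probe sets under the filter were not paired, and some of these had the opposite sign, as given above for smad7.L and bmp1.S. No share of same-sign pairs over all probe sets was computed. RNA of either copy may bind to probes for its twin, so such pairs may share signal, which was not tested.

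Genes downstream and beside the members were examined from a list of 40 pathway gene names found on the array that the member rule does not take. The list was drawn up with results of the same comparison known, so its share of calls is a description and supports nothing about the pathways. Of their 37 tested probe sets, 10 passed (27%, against 4.62% of all tested probe sets), 2 higher in heads and 8 higher in tails, among them tbxt.S, which is also a tail marker. Of 18 BMP-responsive probe sets, 4 were higher in tails, 1 was higher in heads, gata3.S, and 13 did not pass. The 4 were msx1.L, ventx3.2.S and the probe sets annotated to the L and S copies of ventx2.1. In all, 27.8% of the tested BMP-responsive probe sets passed, against 4.62% of all tested probe sets (2% higher in heads and 2.61% higher in tails). The Ventx genes encode homeobox repressors that BMP4 induces in ventral and posterior tissue of the frog. For ventx2.1.L there were 1177, 489, 809 and 982 units in heads, against 2062, 3889.7, 3763 and 4412 units in tails. The S copy, ventx2.1.S, had 1206, 1439.8, 1012 and 1411 units in heads, against 4509.5, 4125, 4387 and 2612 units in tails. RNA of either copy may bind to probes for its twin, so the L and S readings may share signal, which was not tested.

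Neither copy of ventx2.1 overlapped between the tissues, with differences of -2.05 (95% interval between -2.74 and -1.36; limma adjusted p = 0.00309) and -1.61 (95% interval between -2.12 and -1.09; limma adjusted p = 0.00209) for L and S. For ventx3.2.S the values were 514, 152, 139.5 and 239 units in heads and 1320.0, 1779, 2329.8 and 1836 units in tails, a 7.88-fold difference (limma adjusted p = 8.45e-04). The head mean of ventx3.2.S, 7.82, lay just under the filter, so its tail values brought it into the test. Its limma adjusted p without a filter was 0.00103. Under the filter, ventx2.2.L was at least 5.69-fold higher in tails with heads raised to the low-signal mark, a bound that was not itself tested. On its measured signals the limma adjusted p was 0.00122 without a filter. Each of the 3 tested probe sets of ventx2.1 and ventx3.2 passed in all 21 alternatives. For ventx1.1.L the brighter probe set had a difference of 0.03 (limma adjusted p = 0.976), and the dimmer one, under the filter, -1.75 (0.0764 without a filter).

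The homeobox gene msx1.L, induced by BMP in ectoderm, had 1536, 2293, 1693 and 1567 units in heads, against 3153, 3707, 4279 and 2668 units in tails, without overlap. Its difference of -0.96 (limma adjusted p = 0.0319) lost the threshold when 1 array was left out, for each of head replicates 1, 3 and 4 and tail replicates 2 and 3 (up to 0.128). The S copy, msx1.S, lay under the filter (-0.17). The zinc finger gene gata3.S had 359, 546, 553 and 692 units in heads, against 67.3, 155, 215 and 247 units in tails, a difference of 1.77 (limma adjusted p = 0.0248; up to 0.0798 with 1 array left out, above the threshold without head replicate 2, 3 or 4 or tail replicate 2). The tail mean of gata3.S, 7.26, lay under the filter, so its head values brought it into the test. Its limma adjusted p without a filter was 0.0383. Single marker genes of other tissues also differed between the fragments. The epidermal gene has1.S was higher in tails, while the other 3 tested epidermal probe sets, of itln1 and krt12.4, did not pass. The blood and vessel gene lmo2.S was higher in tails (the 1 tested of 7 blood probe sets, with gata1 and the globin genes under the filter), while none of 10 muscle probe sets passed. The mean epidermal level was -0.56 to 0.14 in heads and -0.11 to 0.43 in tails as deviations from the probe set means, and the part of these tissues in the Ventx and msx1 differences was not tested.

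Of 7 tested probe sets of Nodal-responsive genes, 1 was higher in heads (2% of all tested probe sets were) and 3 were higher in tails (2.61% of all). The 3 were 2 probe sets of the endoderm gene sox17b.1.S and tbxt.S. The brighter had 482, 262, 349.7 and 382 units in heads, against 2050.4, 1277, 2782 and 2407 units in tails (difference -2.51, limma adjusted p = 3.50e-04), and the dimmer had a difference of -2.74 (adjusted p = 0.0166, and up to 0.0612 with 1 array left out: head replicate 2, tail replicate 2 or tail replicate 3). Brachyury, tbxt.S, a mesoderm gene of the tailbud and one of the tail markers above, had 191, 186, 189 and 260.4 units in heads, against 446, 518, 564 and 999.9 units in tails. It was 2.94-fold higher in tails (limma adjusted p = 0.00931), and the cardiac and endoderm factor gene gata4.L was 2.88-fold higher in heads (limma adjusted p = 0.00397). The S copy, gata4.S, under the filter, had a difference of 0.20 with overlapping arrays (limma adjusted p = 0.893 without a filter). The head means of tbxt.S and the dimmer sox17b.1.S probe set lay under the filter, so their tail values brought both into the test. Their limma adjusted p without a filter was 0.0159 and 0.0221. Sox17 and brachyury are also general markers of endoderm and posterior mesoderm, so that they do not read Nodal input alone.

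Of 12 tested probe sets of co-receptors, processing enzymes and intracellular regulators, 1 passed (8.33%, against 4.62% of all tested probe sets). It belonged to furin.L, the convertase that cuts BMP and other precursors to their active form, and had 1481, 1115, 1733 and 1528 units in heads, against 2779, 2632, 2488 and 2466 units in tails. Heads and tails did not overlap. The difference of -0.84 (limma adjusted p = 0.0376) missed the threshold without any 1 of the 8 arrays (0.0531 to 0.128). Of the other furin.L probe sets, the second tested one gave -0.81 (adjusted p = 0.165) and 2 under the filter gave -0.01 and -0.15. The S copy, furin.S, under the filter, gave 0.79, the opposite sign (limma adjusted p = 0.5785 without a filter).

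**Figure D4:**
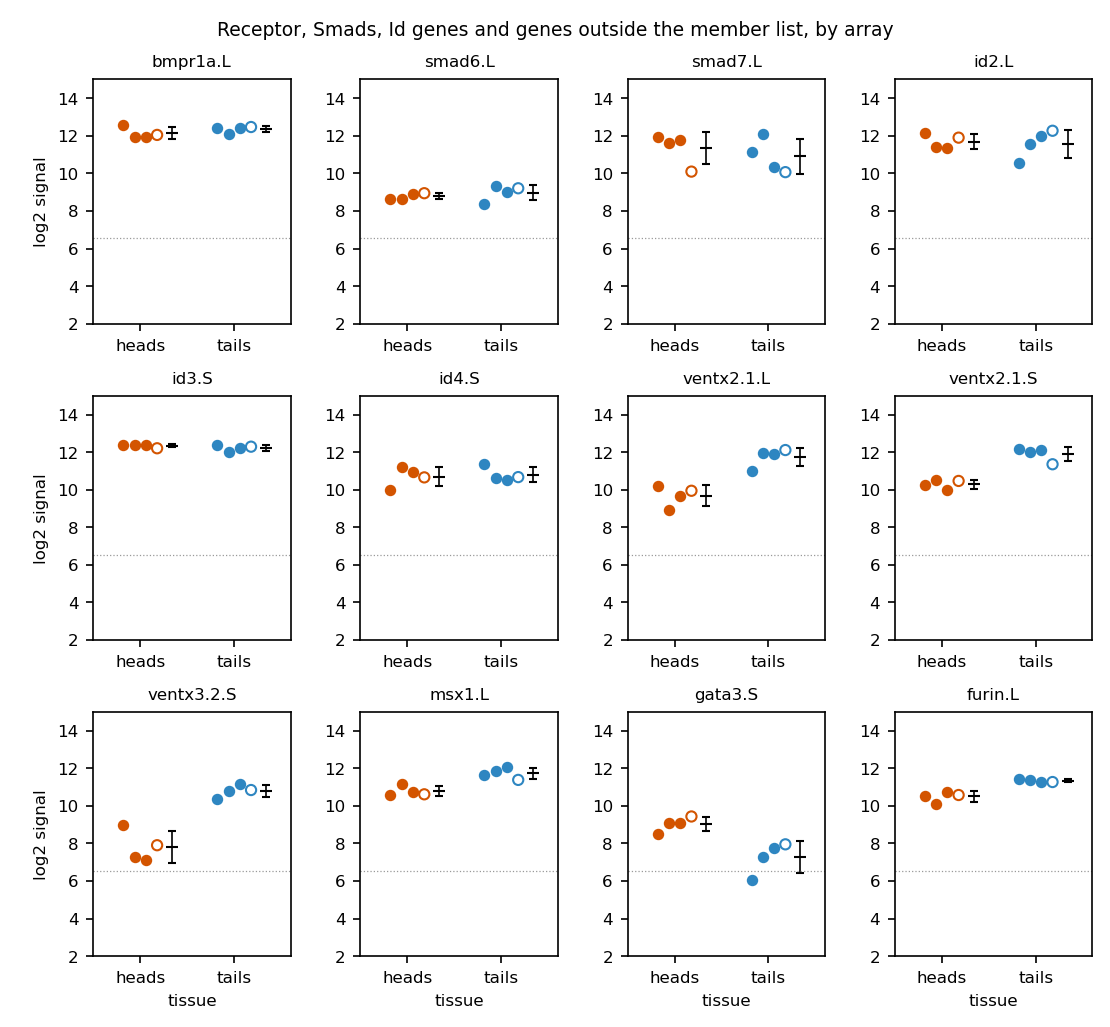
Log2 signal (vertical axis) in heads (orange) and tails (blue) of a receptor, Smads and Id genes and of 6 genes outside the member rule; filled points are single embryos, open points pools, black marks the mean and SD over 4 arrays, and the dotted line the low-signal mark at 6.54. The id3.S points of both tissues lie at the same height, whereas the Ventx points of the tails lie above those of the heads.

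Pools were also set against single embryos, with tissue in the model. No member passed (0 of 40, and 0% of all 9295 tested probe sets), and 3 members had an unadjusted p under 0.05 in limma, against 14.8% of all tested probe sets. They were smad7.L (pooled minus single difference -1.40, adjusted p = 0.188), acvr1.S (1.19, adjusted p = 0.223) and smad4.L (1.18, adjusted p = 0.296), chosen after their values were seen. With array weights, 3 of the 40 members passed (7.5%, against 11.4% of all tested probe sets). The interaction of tissue and pooling also called no member and 0% of all tested probe sets, with 0 members at an unadjusted p under 0.05 (0.409% of all), and it rests on 1 pool per tissue.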

How the data were processed

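Labelled cRNA was prepared from 100 ng of total RNA in 2 cycles, per the labels' protocols. The authors deposited 1 linear intensity per probe set, from MAS5 per the submitters' processing notes (version and scaling not given in the sources used here); no detection calls were used here. Of 15611 probe sets 120 controls were left out. Symbols came from the array annotation: 1 symbol was listed for 9304 probe sets, several for 195, from which no gene is named, and none for 5992. Of the members' identifiers, 84 of 87 matched a RefSeq table of Xenopus_laevis_v10.1 and none changed. Positions are not printed, as the sources name no build.

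Signals under 1 were set to 1 before log2. The tissue effect was fitted in limma 3.58.1 (R 4.3.3; lmFit, then eBayes with trend) over 8 arrays with no other term, and two-sided p-values were adjusted by Benjamini-Hochberg across every tested probe set. Where the lower tissue mean was under the 20th percentile, each array was raised to it and the fold is given as "at least". P-values given with such folds are of the signals before this raising. The fit was also run on simulated data with independent noise in each array and planted differences. Such data hold no departure of a whole array, so the run lends no support to the values given here. The members, classes and lists were chosen with earlier results of these data known. The naming rule took members that passed, the 2 brightest tested probe sets of each class, a set of core genes (among them bmp2, bmp4, bmp7, admp, nodal, gdf1, gdf3, chrd, nog, fst, szl, bambi, cer1, lefty, smad6, smad7 and the Id genes), listed other genes that passed, and ventx2.1, msx1 and tbxt; all further genes were named after their values were seen. The number of arrays limits the precision.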

Additional observations from a re-analysis of the deposited data

Results flagged for a closer look

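In each tissue, the highest or lowest of 4 arrays was flagged where its gap to the next array took most of the range on the log2 scale (Dixon's test at 95%). Of 196 groups of 4 examined, 18 were flagged, and chance flags about 1 in 20. Head replicate 1 accounted for 8 of the 18. It was the highest head for gdf1.S (598 units, the others 138 to 170.5), tll2l.L (13726, the others 2811 to 3476), szl.L (342, the others 135 to 145), the dimmer admp.S probe set (237, the others 13.2 to 19.7) and 3 probe sets of bmpr1a.L (6183, 4916 and 872), which read 1 gene, and the lowest for inhbc.1.L (49.9, the others 137 to 155).

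The head pool was highest for acvr2a.L (544, the other heads 329 to 349) and tbxt.S (260.4, the others 186 to 191), and head replicate 3 was lowest for bambi.L (31.5). In tails, replicate 1 was highest for id4.S (2641) and lowest for tll1.S (73.7, the others 338 to 429.7). Tail replicate 2 was lowest for 1 probe set of tgfbr2l.L (41.6), and replicate 3 was highest for bmp4.S (775) and lowest for smad3.L (47.3). The tail pool was lowest for the dimmer sox17b.1.S probe set (487, the other tails 948 to 993) and for ventx2.1.S (2612, the others 4125 to 4509.5).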

How the results depend on the processing

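Counts of members that passed, 1 higher in heads and 0 higher in tails, are small and moved by single probe sets. With the main filter, 40 members were among 9295 tested probe sets, also with array weights and with arrays left out. There were 87 members among 15491 with no filter and 20 among 6197 with the filter at the 60th percentile. With quantile normalization there were 41 among 9295. Members higher in heads numbered 2 with no filter, 0 with the filter at the 60th percentile, 4 with array weights, and 2 with no filter and without head replicate 1. Members higher in tails numbered 2 with no filter, 1 each with quantile normalization, median centring and low values raised to the 20th percentile (gdf1.S in each), 5 with array weights, 5 without head replicate 1 and tail replicate 1 together, and 5 with no filter and without head replicate 1; the last 2 settings were chosen after seeing the data. With 1 array left out, 1 to 2 members were higher in heads and 0 to 3 higher in tails (gdf1.S, chrd.1.S and tll2l.L without head replicate 1, gdf1.S and acvr1.L without tail replicate 1). Other pathway probe sets higher in heads numbered 0 with the filter at the 60th percentile and 1 in the single-embryo arrays, and 1 to 2 with 1 array left out; those higher in tails numbered 5 to 8 with 1 array left out and 9 without head replicate 1 and tail replicate 1. Totals over all tested probe sets, both directions together, were as follows. With no filter 454 of 15491 passed, and 482 of 15491 also without head replicate 1. With the filter at the 60th percentile 273 of 6197 passed. Quantile normalization gave 440 of 9295, median centring 451, and low values raised to the 20th percentile 448. With array weights 1223 of 9295 passed, so the member counts of that setting stand beside many more calls. There were 211 in the single-embryo arrays, 683 without head replicate 1 and tail replicate 1, and 208 to 501 with 1 array left out. With array weights 3 members passed for pools, among 1059 of all probe sets. Leaving out 1 single-embryo array gave 0 members for pools and for the interaction.

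The replicate number as a block called 635 probe sets and 2 members higher in heads, bmp1.S being added (adjusted p = 0.0387). Same-numbered heads and tails correlated at 0.226, 0.0342, 0.0181 and 0.596 in their deviations from the tissue means, the last being between the pools. Differently numbered ones correlated at -0.536 to 0.176. Deviations within a tissue sum to 0 over its 4 arrays, which constrains these correlations. They do not settle whether the numbers pair the samples. Single values turned in sign 46 times, in 21 probe sets whose differences were at most 0.34 and never passed. Because no detection calls were used here, dim probe sets are not marked as present or absent.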
